A study of Rattus norvegicus with 12 samples.

Results

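Phase II conjugation enzymes attach a polar group to drugs, steroids, bile acids and other lipophilic molecules, and 8 of their genes were followed through rat liver cells, nuclei and tissue sections. UDP-glucuronosyltransferases (UGTs) transfer glucuronic acid, cytosolic sulfotransferases (SULTs) transfer sulfate from the donor PAPS, and glutathione S-transferases (GSTs and the membrane-bound MGSTs) transfer glutathione. In the liver these enzymes are mostly products of hepatocytes, and several are known to differ along the lobule between the portal tract and the central vein.

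The 8 genes, out of 32883 annotated features, were Ugt2b and Ugt1a5 among the UGTs, Sult1e1, Sult2a6 and Sult1a1 among the SULTs, and Gstp1, Gsta4 and Mgst1 among the glutathione transferases. Their Ensembl identifiers in the files were ENSRNOG00000046540 (Ugt2b), ENSRNOG00000018740 (Ugt1a5), ENSRNOG00000001957 (Sult1e1), ENSRNOG00000047986 (Sult2a6), ENSRNOG00000019342 (Sult1a1), ENSRNOG00000018237 (Gstp1), ENSRNOG00000030449 (Gsta4) and ENSRNOG00000007743 (Mgst1). In GRCr8, Sult2a6, Sult1a1 and Gstp1 are on chromosome 1, Mgst1 on 4, Gsta4 on 8, Ugt1a5 on 9, and Sult1e1 and Ugt2b on 14. They were picked by name and family, and Ugt2b also because it was already known to be higher in Lewis rats, so its strain difference is described here without a test. The annotation held 43 UGT, SULT, GST and MGST features in all, and the other 35 are called relatives. A list of 12 genes for the making, transport and turnover of UDP-glucuronic acid, PAPS and glutathione, called cofactor genes, was counted beside them.

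All animals were healthy male rats with no treatment or transgene. Dark Agouti (DA) and Lewis (LEW) inbred rats gave 2 libraries each of total liver homogenate (TLH) cells, which were released by collagenase perfusion, and 2 libraries each of nuclei, which were extracted with a salt and detergent buffer. One more rat of each strain gave an immune-enriched cell library, made with added washing and red cell removal, and 2 Visium sections, which measure spots of tissue holding several cells, came from Wistar liver. The design text gives an age of 8 to 10 weeks, whereas the names of the TLH libraries give 10 weeks for DA and 13 weeks for LEW, and the study's text gives an older age and calls the strains age matched. The ages were not settled, and if the library names are right, strain and age cannot be told apart in the TLH cells. The names of TLH and nuclei libraries share rat numbers although the study describes additional animals for the nuclei. If rats were shared, the platforms were not independent, and the limit on strain and age holds for the nuclei too. The platform fits did not hold the rat as a block. For strain and platform, p-values measure only the spread between these libraries. Comparisons within libraries, between parts of the lobule or cell classes, hold the library as a block. Their p-values set such differences against variation from library to library, with a spread that edgeR borrows in part from other genes. They do not measure how repeatable the difference of a single gene is over animals.

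Cells and nuclei were sorted into classes in silico by marker genes. Hepatocytes were the barcodes that passed no gate of another class and had enough UMIs on hepatocyte markers. The cut was 5% of UMIs in cells and 2% in nuclei. In TLH cells it lay below the median share of endothelial-gated barcodes, 9.24 to 12.1%, so it does not by itself separate hepatocytes from barcodes holding free hepatocyte RNA. The 4 TLH libraries gave 2821 to 4658 hepatocyte barcodes each, the 4 nuclei libraries 1869 to 4650, and the immune-enriched libraries 165 (DA) and 1487 (LEW). The sections held 2437 and 2404 spots. Total depth ran from 61441846 to 92484173 UMIs per TLH library, from 8039397 to 15186970 per nuclei library, 48255870 and 60005133 in the immune-enriched libraries, and 34449562 and 34827603 in the sections. The hepatocyte-gated sums carried 9.23 to 15.4% of their unique molecular identifiers (UMIs, one per captured transcript) on a list of 16 hepatocyte markers. LEW-1 stood apart among the nuclei: only 23.2% of its hepatocyte nuclei had a marker share of at most 10%, against 45.1 to 61.7% in the other 3 libraries, and values without it are given for the members' zone and platform differences and where a member lost its call without it. Pairs of nuclei libraries shared 8 to 24 barcodes. Levels are given as CPM, the UMIs of a gene scaled to the total UMIs of the summed class. Because transcripts were counted at their 3′ ends, levels are compared between samples and not between genes.

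Only 1 feature of the Ugt1a locus, Ugt1a5, was annotated. The first exons of this locus are spliced to shared 3′ exons, so its counts may hold transcripts of other Ugt1a first exons. Ugt2b and Sult2a6 have near copies in the rat genome, and how reads were split among these copies is uncertain.

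Promoter sequences are shown for the genes on which the strain and cell class results turn. RefSeq promoters of the GRCr8 build, from 250 bases before to 50 after the start site, were found for 7 of the 8 genes, all except Ugt1a5. Ugt2b (chr14:20985199-20985498, plus strand) and its relative Ugt2b35 (chr14:21208191-21208490, plus strand), which did not share its strain difference, are set side by side with their longest common run of 31 bases in capitals. The run begins 78 bases before the start site in Ugt2b and 91 before it in Ugt2b35. It occurs in 5 of 33469 promoters, those of LOC134478834, Ugt2b, Ugt2b15, Ugt2b37 and Ugt2b35.
Ugt2b: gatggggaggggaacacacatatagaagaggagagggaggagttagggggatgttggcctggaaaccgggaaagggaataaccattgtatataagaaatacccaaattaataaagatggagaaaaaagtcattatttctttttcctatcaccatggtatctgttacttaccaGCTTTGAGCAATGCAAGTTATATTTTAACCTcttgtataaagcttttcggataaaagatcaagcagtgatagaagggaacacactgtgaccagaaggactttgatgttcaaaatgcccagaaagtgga
Ugt2b35: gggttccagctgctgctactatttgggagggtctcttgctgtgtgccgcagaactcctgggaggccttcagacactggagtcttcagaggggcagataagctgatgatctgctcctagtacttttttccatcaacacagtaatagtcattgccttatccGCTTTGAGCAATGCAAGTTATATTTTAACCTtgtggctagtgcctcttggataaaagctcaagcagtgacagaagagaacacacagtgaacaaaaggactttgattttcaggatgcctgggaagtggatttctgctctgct

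Sult2a6 (chr1:84097759-84098058, minus strand), which was higher in LEW and periportal, is shown in capitals with the HNF1 half-site GTTAAT, found 73 bases before the start site and held by 7.45% of all promoters on either strand. The TATA box core TATAA, also in capitals, occurs at 50 and 24 bases before it and again after it, where matches on both strands overlap, and is held by 26.2% of promoters.
Sult2a6: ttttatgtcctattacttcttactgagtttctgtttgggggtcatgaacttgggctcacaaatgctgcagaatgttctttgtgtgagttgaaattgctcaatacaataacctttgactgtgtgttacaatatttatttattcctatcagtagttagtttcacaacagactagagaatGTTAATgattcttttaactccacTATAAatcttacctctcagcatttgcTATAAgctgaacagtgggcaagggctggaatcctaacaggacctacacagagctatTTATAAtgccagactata
Gstp1 (chr1:210769656-210769955, minus strand), the one member that passed as higher outside hepatocytes, is shown with TGACTCA, an AP-1 site, in capitals at 61 bases before the start site. TGACTCA is held by 4.63% of promoters. Its promoter also has TATAA, left in lower case, at 27 bases before the start site, overlapped by a match on the other strand.
Gstp1: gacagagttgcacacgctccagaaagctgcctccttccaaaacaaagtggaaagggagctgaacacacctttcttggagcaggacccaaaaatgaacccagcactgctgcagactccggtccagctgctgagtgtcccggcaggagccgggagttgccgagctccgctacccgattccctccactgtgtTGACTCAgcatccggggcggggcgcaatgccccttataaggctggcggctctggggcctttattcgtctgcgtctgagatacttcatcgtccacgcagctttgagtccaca

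The strain comparison asked which enzymes follow Ugt2b. In hepatocyte-gated TLH cells Ugt2b, which glucuronidates steroids and xenobiotics, was at 433 and 480 CPM in DA and at 2214 and 1701 CPM in LEW. In nuclei it was at 840 and 898 CPM in DA and at 3177 and 2880 CPM in LEW. The fitted log2 differences, LEW less DA, were 2.13 in TLH cells and 1.83 in nuclei, and the groups did not overlap on either platform. Hepatocytes of the immune-enriched libraries gave 710 CPM in the DA rat and 2735 in the LEW rat. The Wistar sections were at 2880 and 2965 CPM. They were the only samples of that strain and of that platform, so their level cannot be placed against DA or LEW.

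Among the other members only Sult2a6, a SULT2A enzyme of the kind that sulfates bile acids and hydroxysteroids, followed in the TLH cells. It was at 245 and 273 CPM in DA TLH cells and at 667 and 525 in LEW, a rise of 1.23 ± 0.16 (log2, SE, n = 2 libraries per strain, edgeR adjusted p = 0.00411). Without LEW-1 TLH the change was 1.05 with an adjusted p of 0.0742. Nuclei gave 165 and 385 CPM in DA against 490 and 1321 in LEW. The groups stayed apart there too, but each pair of replicates differed more than 2-fold, and the difference of 1.72 ± 0.55 did not pass (adjusted p = 0.242; 2.18 without LEW-1, adjusted p = 0.150). It did pass with DESeq2 (1.71, adjusted p = 0.0206), with the replicate block (1.70, adjusted p = 0.0149), with no filter on low counts and in nuclei over 10% marker share (1.21, adjusted p = 0.00141). The immune-enriched hepatocytes had 246 CPM (DA) and 705 CPM (LEW).

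Ugt1a5, from the locus that conjugates bilirubin and many drugs, did not follow Ugt2b. Its levels were 902 and 807 CPM in DA TLH cells and 1050 and 642 in LEW, with a difference of 0.02 ± 0.22 (adjusted p = 0.979). The LEW nuclei, at 2159 and 932 CPM, lay on both sides of the DA nuclei, at 1337 and 1737. The sign of its difference changed with the setting on both platforms.

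The other SULT members passed on neither platform. Sult1e1, the estrogen sulfotransferase, was at 1267 and 1234 CPM in DA and 1402 and 1524 in LEW TLH cells, a difference of 0.26 ± 0.13 (adjusted p = 0.286). In immune-enriched hepatocytes it was at 891 CPM in the DA rat and 324 in the LEW rat. Sult1a1, a phenol sulfotransferase, was at 456 and 612 CPM in DA and 410 and 482 in LEW TLH cells, and the strains overlapped. In nuclei it was at 574 and 274 CPM in DA and at 151 and 256 in LEW, with a difference of -1.09 ± 0.49 (adjusted p = 0.498).

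The glutathione transferase members passed on neither platform either. Mgst1, a microsomal enzyme, was at 3149 and 2971 CPM in DA TLH cells and at 3208 and 3221 in LEW, a difference of 0.10 ± 0.12 (adjusted p = 0.681). LEW-1 was the high library in nuclei, with 3044 CPM against 1635 in LEW-2 and 1942 and 1813 in DA, and without it the sign of the Mgst1 difference turned from 0.37 to -0.31. Gsta4, which detoxifies the lipid peroxidation product 4-hydroxynonenal, lay between 167 and 185 CPM in all 4 TLH libraries. In nuclei it was at 83.6 to 112 CPM in DA and 70.3 to 76.8 in LEW, a difference of -0.37 ± 0.32 (adjusted p = 0.769). Immune-enriched hepatocytes had 132 CPM (DA) and 101 CPM (LEW). Gstp1, the pi class enzyme, was low in hepatocytes of both strains, at 13.8 to 27.2 CPM in TLH cells and 1.70 to 3.88 CPM in nuclei.

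**Figure D1:**
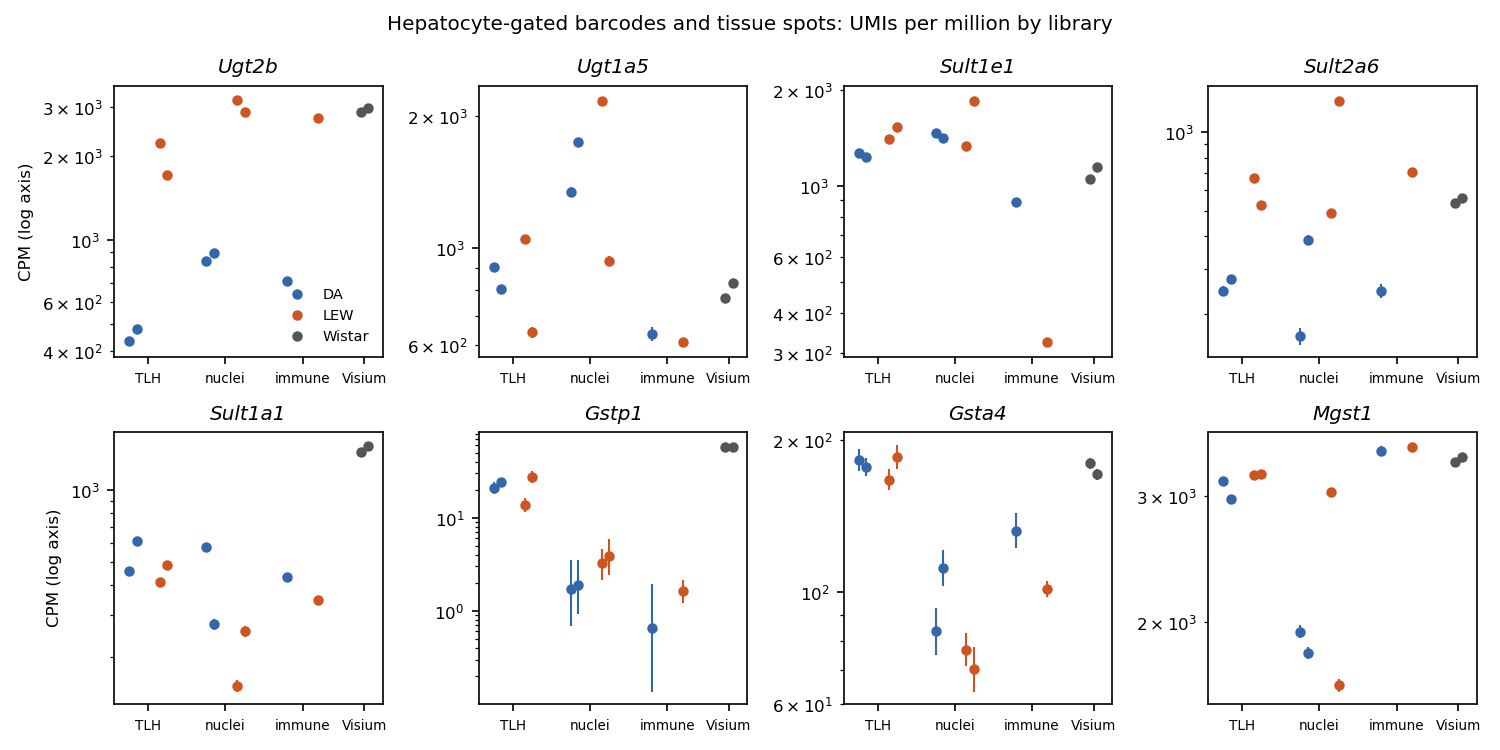
Level of each gene (CPM, log axis with its own range per panel) in hepatocyte-gated TLH cells, nuclei and immune-enriched cells and in all Visium spots; each point is 1 library or section, and bars are exact 95% Poisson intervals that cover counting error only. DA and LEW points are apart for Ugt2b and Sult2a6 on each cell platform, while those of Ugt1a5 lie within 642 to 1050 CPM in TLH cells with LEW on both sides of DA.

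Over members and relatives together, leaving Ugt2b out, 31 genes were tested in TLH cells, and 3 rose and 2 fell in LEW. Of all genes tested 4.14% passed, 1.94% higher and 2.2% lower in LEW. Sult1c2a, a SULT1C family member, rose by 2.13 ± 0.19 (adjusted p = 0.00094), from 11.3 and 7.85 CPM in DA to 42.5 and 38.3 in LEW. Gsta5, an alpha class enzyme, rose by 1.00 ± 0.17 (adjusted p = 0.0144), from 107 and 121 CPM to 251 and 195. The theta class genes Gstt2 and Gstt3 fell by 0.67 and 0.58 (SE 0.13 for both, adjusted p = 0.0293 and 0.0412).

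Of these calls only that of Sult1c2a held in all 11 alternative settings. Sult2a6 was called in 10, Gsta5 in 9, Gstt2 in 6 and Gstt3 in 5, and leaving out LEW-1 TLH left 1 of the 5 calls. The strains did not overlap for 12 of the 31 genes with LEW higher and for 8 with LEW lower, against 23.8% and 29.6% of all genes tested.

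In nuclei 1 of 31 passed, against 1.04% of all genes tested (0.447% higher and 0.589% lower). This was Gstm6, a mu class relative, at 4.86 and 2.49 CPM in DA and 14.2 and 30.8 in LEW, a rise of 2.60 ± 0.47 (adjusted p = 0.0311). Over the alternatives the change ran from 2.11 to 3.22. Its call was lost without either LEW nuclei library, under a stricter barcode filter and in nuclei of at most 10% marker share. Sult1c2a had 16.3 and 21.1 CPM in DA and 47.3 and 49.7 in LEW nuclei, a difference of 1.40 ± 0.29 that missed the threshold (adjusted p = 0.0562), and it passed in 5 of 11 alternatives. Gsta5 differed by 1.11 ± 0.42 (adjusted p = 0.376). LEW was above DA without overlap for 11 of 31 genes and below for 9, against 17.9% and 18.6% of all genes.

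The UGT relatives, named here outside the rule and after their values were seen, did not pass with it. Ugt2b35 was at 413 and 452 CPM in DA TLH cells and at 411 and 305 in LEW, a difference of -0.24 ± 0.16 (adjusted p = 0.441), and its nuclei gave -0.43 ± 0.41. Ugt2b17 differed by 0.11 ± 0.20 in TLH cells and 0.25 ± 0.46 in nuclei. Ugt2a3 had 35.9 and 36.9 CPM in DA and 95.4 and 48.6 in LEW TLH cells, and its difference of 1.02 ± 0.32 did not pass (adjusted p = 0.173), although it did in 5 of 11 alternatives. None of the 12 cofactor genes passed by edgeR on either platform, where 1 on each had an unadjusted p below 0.05, and none passed by DESeq2.

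**Figure D2:**
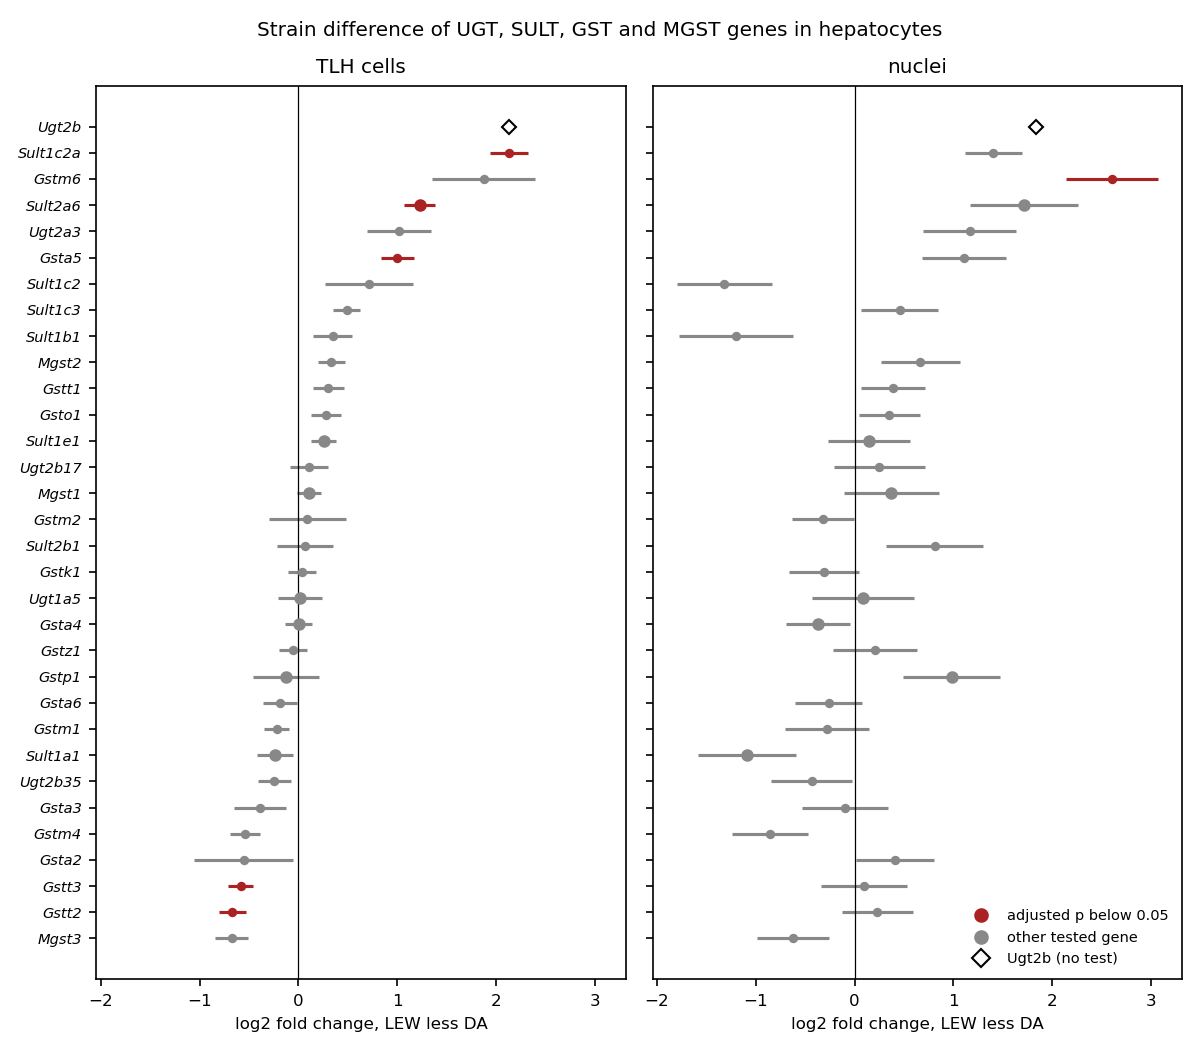
Log2 fold change, LEW less DA, of each UGT, SULT, GST and MGST gene tested in hepatocyte-gated TLH cells (left) and nuclei (right); bars are 1 SE, filled red points passed an adjusted p of 0.05, and the open diamond is Ugt2b, which was not tested. Sult1c2a, Sult2a6 and Gsta5 lie to the right in both panels, but passed only in TLH cells.

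A test of the difference between platforms found no strain effect that changed from nuclei to TLH cells: 0 of 31 genes passed by edgeR, where 4 had an unadjusted p below 0.05, and 0 passed by DESeq2. Of all genes 0.00862% passed. The difference of the strain effect of Sult2a6, TLH less nuclei, was -0.44 ± 0.61, and that of Sult1c2a was 0.75 ± 0.32.

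Genes most like Ugt2b over the 8 hepatocyte sums of TLH cells and nuclei were ranked by Pearson's r of log2 CPM, centered within each platform, as a description among 11598 other genes. The first 5 were Dcun1d5 (r = 0.996), AABR07068590.2, Rufy1, Clca2 and Pbsn (r = 0.989), none of them a conjugation enzyme. Dcun1d5, a cofactor of cullin neddylation, had 35.7 and 35.9 CPM in DA and 52.9 and 49.1 CPM in LEW TLH cells, and so moved with Ugt2b over a much narrower range. Clca2 had 0 UMIs in every DA library, AABR07068590.2 had 0 to 2 and Pbsn 0 to 8. Their r therefore rests on a step up from near absence in DA. Within the enzyme families Sult1c2a came first, at rank 20 (r = 0.972), followed by Gsta5 at 225, Gstm6 at 509 and Sult2a6 at 512 (r = 0.810).

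Platform was compared as TLH cells less nuclei across both strains. Levels outside and inside the nucleus, dissociation and chemistry cannot be told apart here. The fitted differences stood 0.85 (log2) above the CPM ratios, because TMM scaling shifted the 2 platforms against each other, so both scales are given. On the fitted scale 5 of the 8 members were higher in TLH cells, where 72.5% of all genes differed, 34.3% of them higher and 38.3% lower in TLH cells as shares of all genes tested.

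Gstp1 was 3.83 ± 0.28 higher in TLH cells (21.5 against 2.68 CPM in mean), Gsta4 was 1.93 ± 0.19 higher (177.5 against 85.6 CPM) and Mgst1 was 1.42 ± 0.27 higher (3137 against 2108 CPM). Sult1a1 was 1.61 ± 0.30 higher (490 against 314 CPM), and for these 4 genes both scales had the same direction. Hepatocyte-gated cells of the immune-enriched libraries, also whole cells, had only 0.658 (DA) and 1.64 CPM (LEW) of Gstp1. What set them apart from TLH cells was not tested. Sult1e1 was 0.72 ± 0.20 higher in the fit, but its mean CPM was lower in TLH cells, at 1357 against 1512, so its direction turned with the scaling. Ugt2b and Ugt1a5 differed by 0.09 ± 0.22 and -0.02 ± 0.30 in the fit, and in CPM both were lower in TLH cells, at 1207 against 1949 and at 851 against 1541. Sult2a6, at 428 against 590 CPM, differed by 0.58 ± 0.29 in the fit, which did not pass (adjusted p = 0.0874). It passed with the replicate block (1.24, adjusted p = 0.00203), without LEW-2 nuclei (0.84, adjusted p = 0.00627) and with no filter on low counts (0.57, adjusted p = 0.0387). Of 24 relatives tested 15 were higher and 1 lower in TLH cells on the fitted scale, whereas 14 were higher and 10 lower in mean CPM. Without LEW-1 nuclei the same 5 members passed, with Mgst1 at 1.68, Sult1a1 at 1.36, Gsta4 at 1.93, Gstp1 at 3.93 and Sult1e1 at 0.61, and the fitted difference of Ugt1a5 turned to 0.30.

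The share of hepatocyte marker transcripts moved with the nuclei's levels. In the 4 libraries Mgst1 was at 808 to 1431 CPM in nuclei of at most 10% marker share and at 3478 to 3944 CPM in those above it. Ugt2b kept its order of strains in both: 654 and 745 CPM in DA against 2919 and 2663 in LEW at low share, and 1155 and 1159 in DA against 3321 and 3485 at high share. With nuclei of low share alone, Ugt2b (0.66, adjusted p = 0.00183) and Ugt1a5 (0.83, adjusted p = 0.00533) also passed as higher in TLH cells in the fit.

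Zonation was measured by ranking hepatocyte nuclei within each library, or spots within each section, by the log2 ratio of pericentral to periportal marker UMIs. The outer 2 of 3 equal bins, called periportal and pericentral, were compared. The 8 genes were not among the zone markers. Of genes outside the zone marker lists, Cyp7a1, the rate-limiting enzyme of bile acid synthesis, had the known order. It was 6.67 to 21.7 times higher in the pericentral bin of the 4 nuclei libraries and 3.24 and 4.10 times in the sections. The pericentral to periportal ratio of albumin (Alb) was 2.31, 1.57, 0.969 and 1.62 in DA-1, DA-2, LEW-1 and LEW-2 nuclei. For Alb it was 0.847 and 0.827 in the sections, and 0.625 to 0.844 in nuclei of low marker share. Fitted differences in nuclei stood 0.35 (log2) above the CPM ratios.

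In nuclei 5 of 7 tested members were pericentral, 1 was periportal and 1 did not pass. Of all genes tested 36.3% passed, 20% pericentral and 16.4% periportal. Sult1e1 was at 942, 750, 809 and 1074 CPM in the periportal bin of DA-1, DA-2, LEW-1 and LEW-2 and at 2049, 2284, 1945 and 2608 CPM in the pericentral bin, a fitted difference of 1.67 ± 0.18 (adjusted p = 6.7e-06). All 4 libraries were at least 2.18 times higher pericentrally, and in nuclei of low marker share they were 2.78 to 4.09 times higher. Ugt1a5 was at 710, 1057, 1586 and 647 CPM periportally and at 2450, 2838, 2903 and 1286 pericentrally, a difference of 1.63 ± 0.22 (adjusted p = 0.000103).

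Sult2a6 was the only member with the opposite order. Its periportal bins were at 234, 735, 758 and 2479 CPM and its pericentral bins at 89.4, 71.8, 215 and 250 CPM, a fitted difference of -2.13 ± 0.32 (adjusted p = 0.000214). The direction held in all 4 libraries, with pericentral levels at 0.0977 to 0.383 of the periportal ones. In nuclei of low marker share this ratio was 0.0859 to 0.262.

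Ugt2b had a small zone difference next to its strain difference. Its periportal and pericentral levels were 696 and 1055 CPM in DA-1, 830 and 941 in DA-2, 3081 and 3249 in LEW-1 and 2793 and 2864 in LEW-2. The fitted difference of 0.58 ± 0.20 passed (adjusted p = 0.0309), but it was -0.07 in nuclei of low marker share. Without DA-2 or LEW-2 it missed the threshold at differences no smaller, 0.59 and 0.71. In both bins the LEW libraries stood above both DA libraries.

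Gsta4 and Mgst1 were pericentral by 1.22 ± 0.18 and 1.5 ± 0.25 (adjusted p = 0.000199 and 0.000539). Mgst1 rose from 948 to 3567 CPM in DA-1 but only from 2481 to 3405 CPM in LEW-1, the library with the highest marker share. The bins themselves differed in marker share, from 6.57% periportal to 16.7% pericentral in DA-1 and from 14.4% to 15.6% in LEW-1. At low marker share Mgst1 did not pass (0.16, adjusted p = 0.135), with pericentral levels at 0.952 to 1.26 of the periportal ones, whereas Gsta4 was still 1.17 to 1.42 times higher pericentrally. Sult1a1 had a fitted difference of 0.22 ± 0.16 (adjusted p = 0.310), and its CPM was lower pericentrally in DA-1 (707 against 365) and higher by at most 1.17 times in the other libraries. Without DA-1 its difference was 0.40 and passed (adjusted p = 0.0110). Gstp1 was too low in hepatocyte nuclei to be tested, with 7 to 29 UMIs per library. Without LEW-1 the same 6 members passed, with Sult1e1 at 1.72, Ugt1a5 at 1.80, Sult2a6 at -2.34, Ugt2b at 0.67, Gsta4 at 1.41 and Mgst1 at 1.76, and Sult1a1 at 0.16 did not.

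Zonation differed between strains for some genes in a test of the difference itself: 6 of 30 members and relatives were less pericentral in LEW and none more so. Of all genes 5.68% passed, 5.02% in that direction and 0.653% in the other. Ugt1a5 was the one member among them (-1.01 ± 0.30, adjusted p = 0.0466), with pericentral to periportal CPM ratios of 3.45 and 2.68 in DA and 1.83 and 1.99 in LEW. Its call was lost without DA-1 (-0.66, adjusted p = 0.0627). Mgst1 (-1.10, adjusted p = 0.0575) missed the threshold but passed with DESeq2 (adjusted p = 0.0183), with no filter (0.0280), with the outer 2 of 5 bins (0.00455), with zone markers lacking Cyp2e1 and Cps1 (3.2e-08) and without DA-2. Ugt2b, at -0.68, passed without DA-2 and with the shorter marker list, settings in which 25.0% and 17.9% of all genes passed. Gsta4 (-1.18, adjusted p = 0.000587) and, in the opposite direction, Sult1a1 (0.65, adjusted p = 0.0190) also passed without DA-2, and Sult1e1 (-0.46, adjusted p = 0.0282) with the shorter list. Without LEW-1 or without LEW-2 the difference of Ugt1a5 was -0.91 or -1.05 and did not pass, as 0 genes of all tested did by edgeR in either fit, where 7 and 9 genes of the families had an unadjusted p below 0.05.

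For zone across both strains, where 20% of all genes tested were pericentral and 16.4% periportal, 13 of the 23 relatives tested were pericentral and none periportal by edgeR, with 1 more at an unadjusted p below 0.05. Gstt3 (1.82 ± 0.25) and Gstm2 (1.19 ± 0.16) were those with no overlap between bins. In nuclei of low marker share 18 members and relatives passed in either direction, against 19 in all nuclei. Of all genes 14.0% and 36.3% did. There Gstt3 was still 1.58 to 2.54 times higher pericentrally, whereas Ugt2b17, one of the pericentral relatives, was at 0.660 to 0.993 times. Sult1b1 was at 1255 CPM periportally and 652 pericentrally in mean but did not pass (-0.35 ± 0.18, edgeR adjusted p = 0.128). Among 11 cofactor genes tested for zone 5 were pericentral, against the same 20%.

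The Wistar sections gave the same order for Sult2a6, Ugt1a5 and Sult1e1 with smaller differences, and a spot there holds several cells. Of all genes 14.3% passed, 6.79% pericentral and 7.49% periportal, and 5 of 8 members did. Sult2a6 was at 673 and 710 CPM in the periportal bins and 368 and 366 in the pericentral ones, a fall of 0.92 ± 0.03 (SE, n = 2 sections, adjusted p = 1.2e-27). This p-value rests on 2 sections and a spread borrowed in part from other genes, so its size is no measure of repeatability over rats. Ugt1a5 was at 612 and 642 CPM against 996 and 1115, a rise of 0.74 ± 0.02, and Sult1e1 at 854 and 912 against 1309 and 1478, a rise of 0.65 ± 0.02. Gsta4 rose by 0.23 ± 0.04. Mgst1 rose by 0.07 ± 0.02, which was not called by DESeq2 (adjusted p = 0.277).

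Ugt2b, Sult1a1 and Gstp1 did not pass in the sections, at 0.03 ± 0.02, -0.06 ± 0.02 and 0.01 ± 0.06. Sult1a1 (adjusted p = 0.0520) did pass as periportal in 4 of 5 alternatives, at -0.056 to -0.073, but not with DESeq2. Of 25 relatives 11 were pericentral, with Gsta3 (1.03 ± 0.09), Gsta5 (0.71 ± 0.04), Mgst2 (0.53 ± 0.04) and Ugt2b17 (0.41 ± 0.03) the largest, and Ugt2a3 (-0.51 ± 0.05) and Mgst3 (-0.14 ± 0.03) were periportal. The glutamate-cysteine ligase subunit Gclm (0.33 ± 0.05) was among 4 of 12 cofactor genes that were pericentral. The sections came from separate rats, per the study's text, and 55.6% and 50.9% of their spots lay near a cut between bins.

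**Figure D3:**
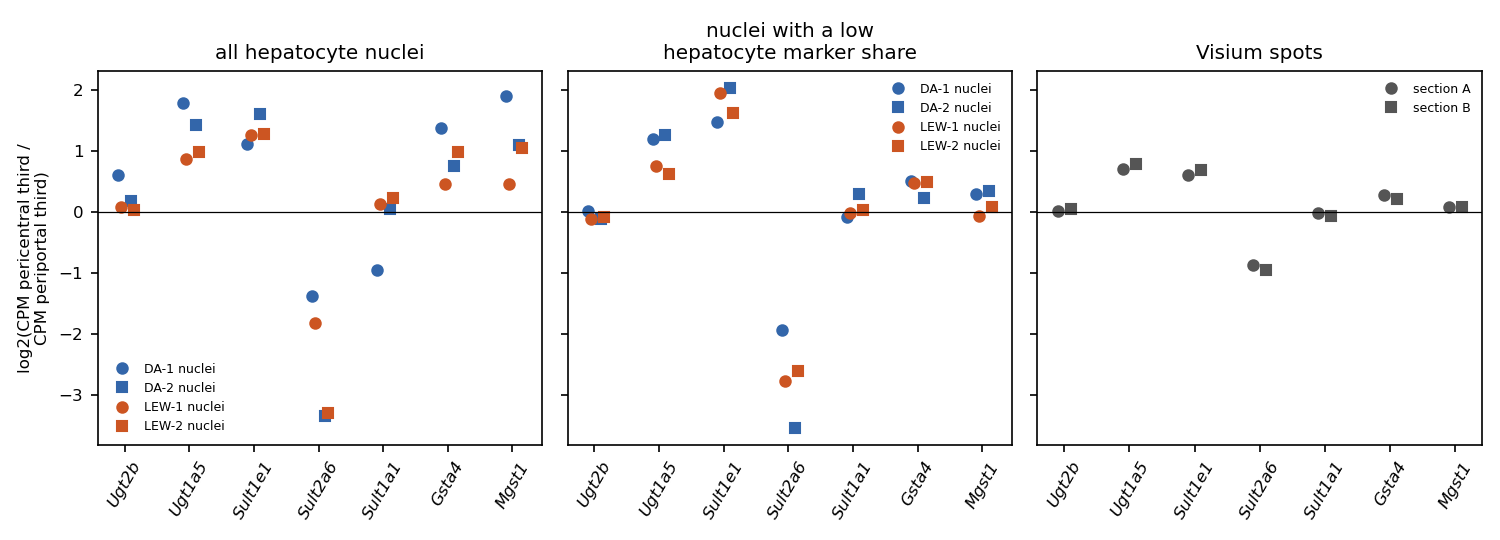
Log2 ratio of CPM, pericentral over periportal bin (the outer bins of the 3), of 7 genes in all hepatocyte nuclei (left), nuclei of at most 10% hepatocyte marker share (middle) and Visium spots (right); each point is 1 library or section, and Gstp1 is left out for its low counts. Sult2a6 lies below 0 and Sult1e1 and Ugt1a5 above it in every library and section, while Ugt2b lies at 0.60 or less.

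Cell classes were compared within each library as class less hepatocyte. In TLH cells the hepatocyte transcripts were not confined to hepatocytes: the median hepatocyte marker share was 9.24 to 12.1% of UMIs in endothelial-gated barcodes of the 4 libraries, against 12.5 to 14.0% in hepatocytes. In endothelial-gated nuclei it was 3.27 to 7.13%, against 6.79 to 20.5% in hepatocyte nuclei, and in LEW-2 the classes were alike (6.69 and 6.79%). In endothelial-gated cells of the immune-enriched libraries it was 0.25% (DA) and 2.24% (LEW), against 9.47% and 14.3% in hepatocytes. UMIs per 1000 albumin (Alb) UMIs are therefore given too, since one source of free hepatocyte RNA keeps its genes in one ratio. Fitted differences between classes stood 0.17 to 0.28 (log2) below the CPM ratios.

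Gstp1 was the one member that passed as higher outside hepatocytes. In TLH cells it was at 20.7, 24.1, 13.8 and 27.2 CPM in hepatocytes of DA-1, DA-2, LEW-1 and LEW-2 and at 264, 332, 412 and 445 CPM in endothelial-gated cells, a difference of 3.81 ± 0.15 (adjusted p = 1.6e-13). Of all genes 43% passed in that comparison, 21.6% higher and 21.4% lower. In nuclei endothelial levels were 139, 144, 71.6 and 99.8 CPM, a difference of 4.99 ± 0.36 (adjusted p = 3.7e-19), where 46.1% of all genes passed, 21.9% higher and 24.2% lower. Per Alb UMI, endothelial Gstp1 was 17.4 to 55.4 times the hepatocyte value in TLH cells and 33.4 to 193 times in nuclei.

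Mesenchymal cells also had more Gstp1. Their levels were 72.9 to 154 CPM in TLH cells (2.48 ± 0.20) and 37.5 to 81.3 CPM in nuclei (4.12 ± 0.43), where 21.8% and 27.3% of all genes passed (11.1% and 13.3% higher, 10.7% and 14% lower). In macrophages it was higher in TLH cells (0.95 ± 0.21, at 39.7 to 64.0 CPM, with 56.3% of all genes passing, 29.3% higher and 27% lower) but not in nuclei (0.72 ± 0.80, with 24.6% passing, 11.7% higher and 12.9% lower). Both DA libraries had 0 UMIs there, which allows up to 22.7 and 17.8 CPM (3 UMIs), and the LEW libraries had 3 and 2 UMIs. TLH lymphocyte-gated cells, which were not tested, had 149 to 255 CPM.

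None of the other 7 members passed as higher than hepatocytes in a tested class. In endothelial-gated cells 6 of them were lower both in TLH cells and in nuclei, with Ugt1a5 at -0.92 ± 0.08 and -1.11 ± 0.17 and Ugt2b at -0.80 ± 0.09 and -1.17 ± 0.17. Gsta4 did not pass in either (-0.08 ± 0.09 and -0.05 ± 0.24). Its mean CPM was higher in endothelial TLH cells than in hepatocytes, at 204 against 177.5, and the libraries of the classes did not overlap. Per Alb UMI, endothelial Gsta4 was 1.41 to 2.29 times the hepatocyte value in TLH cells and 1.57 to 3.24 times in nuclei. In the immune-enriched libraries it was 2.14 to 2.54 times. The ratio of Gsta4 was not particular to endothelial cells. In TLH cells it was 1.17 to 1.95 times in macrophages, 1.19 to 1.64 in mesenchymal cells and 1.28 to 2.30 in lymphocytes. In the myeloid class marked by Lyz2 and Cd74 it was 1.45 to 2.46 times. In macrophages 7 members were lower in TLH cells and 4 in nuclei, and in mesenchymal cells 3 and 3. Of the 4 calls in macrophage nuclei, those of Ugt2b, Sult1a1 and Mgst1, but not that of Ugt1a5, were lost without single libraries. Without DA-2, Ugt2b was at -0.55 against -0.70 (adjusted p = 0.0658), Sult1a1 at -0.41 against -0.63 (0.266) and Mgst1 at -0.53 against -0.65 (0.0966). Without DA-1 the call of Sult1a1 was lost at -0.62 (0.0624), and without LEW-1 that of Mgst1 at -0.47 (0.100). In mesenchymal nuclei that of Ugt2b was lost without DA-2 (adjusted p = 0.0989). In barcodes below the median hepatocyte marker share, other members also passed as lower. These were Mgst1 (-1.53), Sult1a1 (-1.15) and Sult1e1 (-0.66) in mesenchymal nuclei, where 39.9% of all genes passed. In macrophage nuclei they were Gsta4 (-0.91), Sult1e1 (-0.72) and Sult2a6 (-0.69), where 38.0% did. In mesenchymal TLH cells they were Sult1e1 (-0.34), Sult2a6 (-0.35) and Sult1a1 (-0.32), where 27.0% did.

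Relative to Alb, Ugt2b was near its hepatocyte ratio in TLH cells. Ugt2b per Alb UMI in endothelial cells was 0.991 to 1.23 times that of hepatocytes of the same library, and in macrophages 1.06 to 1.26 times. Most other members were above the hepatocyte ratio in endothelial TLH cells. Sult1e1 was at 1.11 to 1.78 times, Sult2a6 at 1.24 to 1.63 and Sult1a1 at 1.22 to 1.84. Mgst1, Gsta4 and Gstp1 were also above it in every TLH library. Only Ugt1a5, at 0.874 to 1.17 times, lay on both sides of it as Ugt2b did. In TLH macrophages Sult1e1 (1.13 to 1.68 times), Sult2a6 (1.21 to 1.78) and Sult1a1 (1.05 to 1.87) were above the hepatocyte ratio too. Ugt2b also differed between strains by a like factor in the TLH classes compared, from 3.06 times in macrophages to 4.51 times in mesenchymal cells, against 4.29 in hepatocytes. In the immune-enriched libraries, with 1 rat per strain, it was 3.85 in hepatocytes and 13.4, 41.8 and 47.5 in endothelial cells, macrophages and mesenchymal cells. The DA levels in those 3 classes were low, at 43.5, 4.40 and 24.8 CPM. Alb was also higher in LEW there, at 949 (DA) and 8483 CPM (LEW) in endothelial cells and 327 and 3156 in macrophages. In mesenchymal cells Alb was at 818 and 17704 CPM. Mgst1, at 1.01 times in hepatocytes, was 11.6, 4.06 and 8.30 times higher in LEW in the same 3 classes. The part of free hepatocyte RNA in these levels was not tested.

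Gsta6, an alpha class relative, was the one relative higher in endothelial-gated barcodes. It had 49.8, 49.9, 67.2 and 74.2 CPM in TLH endothelial cells against 14.5 to 18.6 CPM in hepatocytes (1.499 ± 0.14, adjusted p = 7.0e-11), and 59.7 to 140 CPM in endothelial nuclei (2.49 ± 0.27, adjusted p = 9.3e-12). Its own Alb ratio in endothelial cells was 3.40 to 8.61 times that of hepatocytes in TLH cells and 8.09 to 26.0 times in nuclei. In TLH endothelial cells 11 of 22 relatives were lower, against 21.4% of all genes tested, and in nuclei 14 of 20, against 24.2%.

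**Figure D4:**
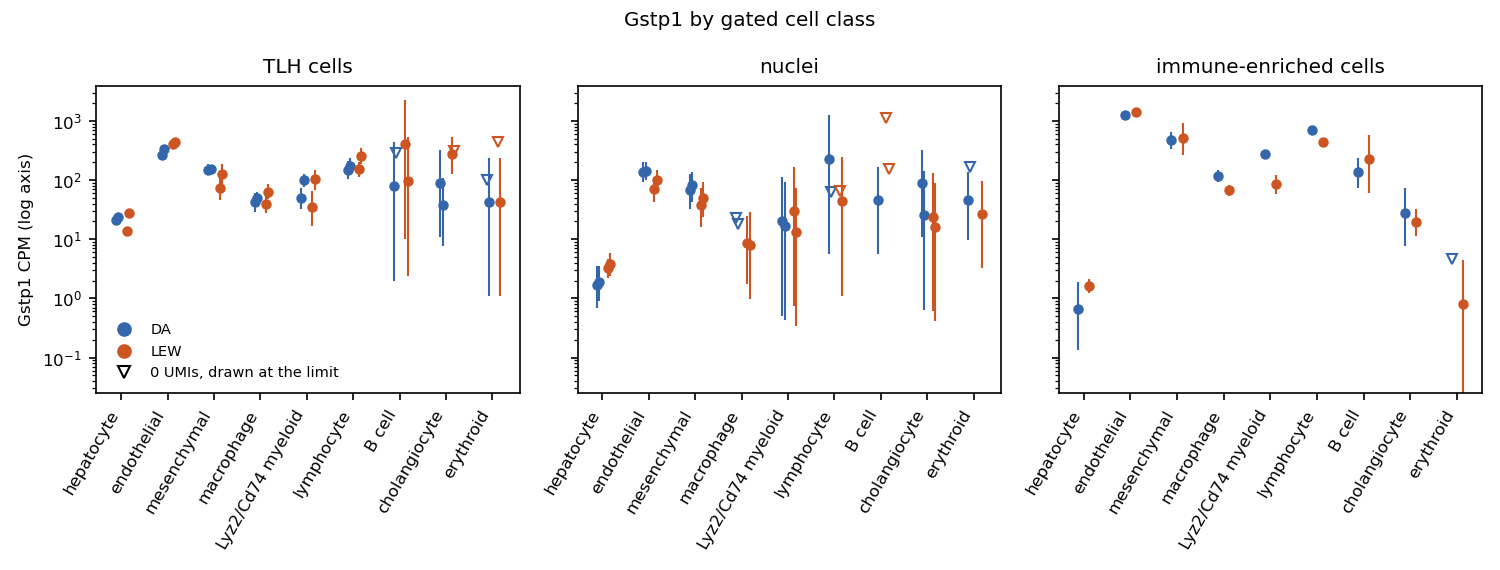
Gstp1 level (CPM, log axis) by gated class in TLH cells, nuclei and immune-enriched cells; each point is the sum over 1 class of 1 library, bars are exact 95% Poisson intervals covering counting error, and open triangles are sums with 0 UMIs drawn at the level of 3 UMIs. Endothelial points lie above the hepatocyte points of all libraries in each panel.

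The immune-enriched libraries came from 1 rat per strain and so allow no test. Intervals are exact 95% Poisson intervals for counting error only. Gstp1 reached 1245 CPM (715 UMIs) in endothelial-gated cells of the DA rat and 1419 CPM (1332 UMIs) of the LEW rat, against 0.658 CPM (3 UMIs) and 1.64 CPM (50 UMIs) in hepatocytes. Lymphocytes had 689 and 440 CPM, and mesenchymal cells 471 (38 UMIs) and 523 CPM (12 UMIs). Macrophages had 117 CPM (80 UMIs) and 67.1 CPM (82 UMIs), and the Lyz2 and Cd74 myeloid class 281 and 85.3 CPM. The erythroid class gave 0 UMIs in the DA rat, which allows up to 4.64 CPM by the limit of 3 UMIs used here for sums of 0, and 1 UMI in the LEW rat.

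Ugt1a5 was above its hepatocyte ratio to Alb in macrophages of the immune-enriched libraries, whereas in the other libraries this ratio was 0.993 to 1.47 times (TLH cells) and 0.619 to 1.55 times (nuclei) that of hepatocytes. In the DA rat it had 318 UMIs per 1000 Alb UMIs (248.7 to 401.6) in macrophages against 16.5 in hepatocytes, and in the LEW rat 45.6 (39.1 to 52.9) against 12.5. The counts were 71 and 176 UMIs, or 104 and 144 CPM, well under the hepatocyte levels of 635 and 609 CPM. The Lyz2 and Cd74 myeloid class was above the hepatocyte ratio too, with 123 (86.7 to 168) in the DA rat and 27.6 (20.4 to 36.6) in the LEW rat. In lymphocytes, with 14.8 (4.82 to 34.6) and 7.31 (4.86 to 10.6), it did not exceed the hepatocyte ratio.

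Mgst1 per Alb UMI was above hepatocytes in the myeloid class marked by Lyz2 and Cd74 of the immune-enriched libraries, and 1.07 to 1.55 times hepatocytes in this class of TLH cells and 0.731 to 1.34 times in nuclei. It had 526 UMIs per 1000 Alb UMIs (448 to 613) there in the DA rat against 90.2 in hepatocytes, and 112 (96.4 to 128) against 72.2 in the LEW rat. The levels were 242 and 502 CPM against about 3475 and 3518 in hepatocytes. Gsta6 was at 212 and 319 CPM in endothelial cells and at 36.7 and 45.8 CPM in macrophages, against 12.1 and 13.3 in hepatocytes. The Alb ratio was not constant for the other genes either: Ugt2b had 45.9 (29.7 to 67.7) in endothelial cells of the DA rat against 18.4 in hepatocytes. Ugt2b per Alb UMI in macrophages, 13.5 (2.77 to 39.3) in the DA rat from 3 UMIs, covered the hepatocyte ratio within its counting interval.

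**Figure D5:**
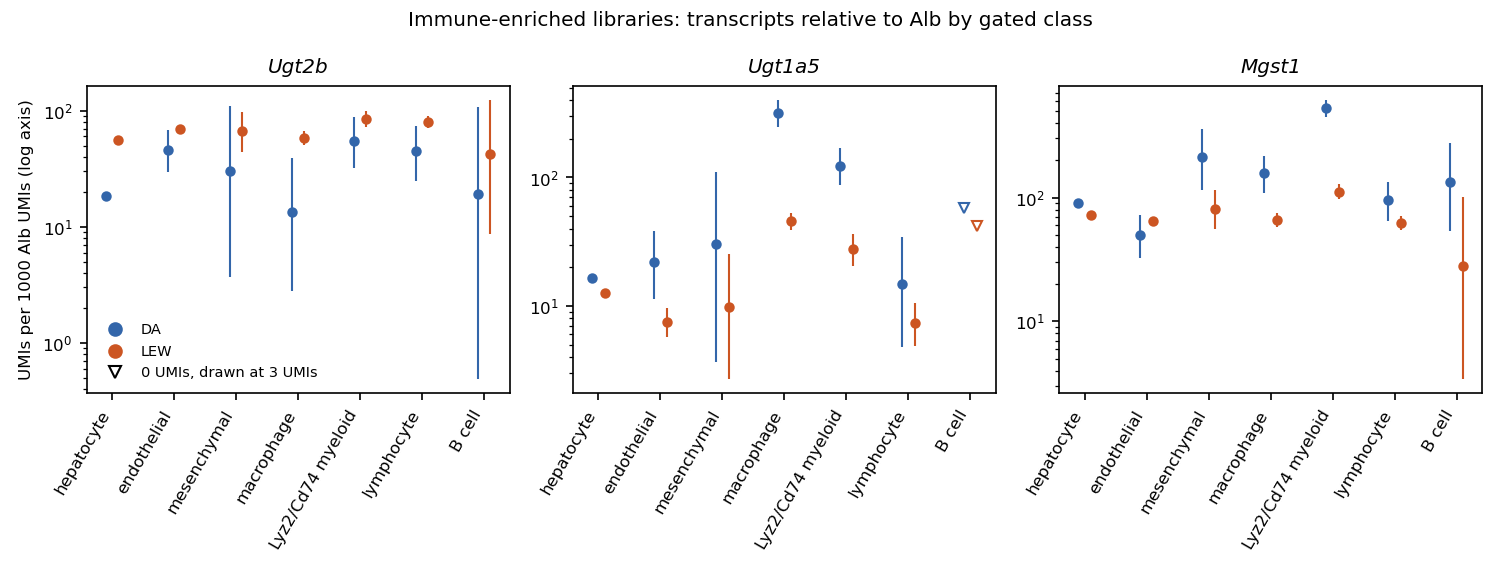
UMIs of Ugt2b, Ugt1a5 and Mgst1 per 1000 Alb UMIs (log axis) by gated class in the 2 immune-enriched libraries; bars are exact 95% Poisson intervals of the gene's count, and open triangles are classes with 0 UMIs drawn at 3 UMIs. Ugt1a5 is highest in macrophages and Mgst1 in the Lyz2 and Cd74 myeloid class in both rats.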

How the data were processed

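The authors deposited UMI counts per gene and barcode, made with Cell Ranger 3.1.0 (cells and nuclei) and Space Ranger 1.1.0 (sections) on a custom Ensembl reference of Rnor 6.0. TLH and immune-enriched matrices came without gene lists, so their rows were named in the order of the nuclei feature list. Barcodes were kept at the UMI and mitochondrial limits the study gives for each library, except that 2000 UMIs was used in place of 1500 for the LEW TLH libraries. The stated limit was run as an alternative added after the results were seen. Classes were gated on marker genes, with no clustering and no doublet caller, and nuclei and spots were ranked into 3 bins by zone markers. Summed UMI counts per library and class were fitted with edgeR 4.0.16 (quasi-likelihood test, TMM scaling, filterByExpr, R 4.3.3), with Benjamini-Hochberg adjustment over all genes tested and a threshold of 0.05. Class and zone fits held the library as a block, and errors of fold changes are SE. DESeq2 1.42.0, no filter, other gates, other bins and left-out libraries were alternatives. The fitting code was tested on simulated data.

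The 8 genes, the family, cofactor and marker lists and the tests were chosen with earlier results of these data known. Relatives were named when past the threshold with groups that did not overlap, at most 5 in each direction by fold change. Intervals for single sums are exact Poisson intervals for counting error only. Same-numbered libraries of the strains did not deviate together over all genes (correlation 0.0796 in nuclei and -0.136 in TLH cells). The strain fits reported were therefore not blocked by number, but this does not settle whether same-numbered libraries were processed together. With the replicate block, calls over all genes rose from 109 to 505 in nuclei and fell from 409 to 253 in TLH cells.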

Additional observations from a re-analysis of the deposited data

Results flagged for a closer look

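Zonation differed between DA and LEW nuclei for 6 genes of the families, by the edgeR test of the difference of the zone effects, LEW less DA, with 2 libraries per strain. The pericentral less periportal log2 difference was smaller in LEW by -3.11 for Gsta3 (adjusted p = 0.0136), -1.32 for Gstt3 (0.0255), -1.28 for Gsta5 (0.0214), -1.23 for Mgst2 (0.0289), -1.09 for Ugt2b17 (0.0348) and -1.01 for Ugt1a5 (0.0466). Pericentral to periportal CPM ratios of Gstt3 were 4.95 and 3.09 in DA against 1.67 and 2.29 in LEW. Without LEW-1 the differences were -0.91 (Ugt1a5) to -3.81 (Gsta3) and without LEW-2 -1.05 to -2.78 for the same genes, but 0 of all genes tested passed by edgeR in either fit, where 7 and 9 of the families had an unadjusted p below 0.05. Without DA-1, where 1.65% of all genes passed, they were smaller, at -0.64 (Mgst2) to -2.21 (Gsta3), and Gstt3 alone passed (-0.83, adjusted p = 0.0355).

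Hepatocyte marker share went from 6.57% in the periportal to 16.7% in the pericentral bin of DA-1, from 7.24% to 11.9% in DA-2, from 14.4% to 15.6% in LEW-1 and from 7.24% to 10.7% in LEW-2. Among nuclei of at most 10% marker share the differences were -3.93 for Gsta3, -0.997 for Mgst2, -0.76 for Gsta5, -0.55 for Ugt1a5, -0.45 for Ugt2b17 and -0.30 for Gstt3, and Ugt1a5 alone passed (adjusted p = 0.00647), where 0.817% of all genes did.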

How the results depend on the processing

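Counts below are members and relatives that passed, with Ugt2b left out of strain counts, and percentages are the share of all genes tested that passed in the same fit. For strain in nuclei (1 in the result reported, 1.04%) they were 3 with DESeq2 (2.28%), 4 with no filter (2.81%), 3 with the replicate block (4.80%), 2 with a stricter hepatocyte gate (1.70%), 0 with a stricter barcode filter (0.674%, with 6 of the families at an unadjusted edgeR p below 0.05), 0 at low marker share (0.523%, 5) and 4 at high marker share (3.03%). Leaving out 1 library each gave 0 to 1, with 0 without LEW-1 (0.606%, 7) or LEW-2 (0.467%, 10). For strain in TLH cells (5, 4.14%) they were 10 with no filter (7.28%), 3 with the replicate block (2.56%), 9 with the replicate numbers of LEW crossed (7.75%), which was added after seeing the data as was the split by marker share, 8 with a stricter gate (2.85%) and 1 to 4 without 1 library each, with 1 without LEW-1 (0.850%) and 3 without DA-2 (1.78%). The block gave 253 calls over all genes and the crossed block 766, against 409. For zone by strain (6, 5.68%) they were 13 with zone markers lacking Cyp2e1 and Cps1 (17.9%), 1 at low marker share (0.817%) and 0 to 14 without 1 library each, with 1 without DA-1 (1.65%), 14 without DA-2 (25.0%) and 0 without LEW-1 or LEW-2, where 0 of all genes passed by edgeR and 7 and 9 of the families had an unadjusted p below 0.05. For macrophage nuclei (10, 24.6%) they were 19 with no filter (13.7%) and 4 to 11 without 1 library each, and for mesenchymal nuclei (8, 27.3%) 14 with no filter (14.0%), 16 in cells of low marker share (39.9%) and 4 to 7, both lowest without DA-2 (13.2% and 17.0%). For mesenchymal TLH cells (8, 21.8%) they were 19 with no filter (13.9%), 15 in cells of low marker share (27.0%) and 14 with LEW TLH barcodes from 1500 UMIs (26.7%), a setting under which no other of these counts moved by over 1.5 times. No filter tests more genes; the causes of the other changes were not tested.

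Signs of log2 differences turned in 56 values of the members. Of these, 1 was called in the result reported (Ugt2b for zone in nuclei) and 1 under the alternative (Ugt1a5 for platform at low marker share, adjusted p = 0.00533). In nuclei by strain, Ugt1a5 gave -0.082 with the replicate block, -0.22 at low and -0.19 at high marker share and -0.82 to 0.65 without 1 library each, Mgst1 gave -0.067 at high share and -0.31 to 0.84, and Sult1e1 gave -0.55 at high share. In TLH cells by strain, Ugt1a5 gave -0.014 with no filter, -0.024 with the block, -0.023 with the crossed block, -0.022 with the stricter gate, -0.024 with the stricter barcode filter, and -0.37 to 0.31 without 1 library each. Gstp1 gave 0.090 with the stricter barcode filter and -0.69 to 0.31, Sult1a1 -0.46 to 0.026, and Mgst1 -0.043 with the stricter gate. Gsta4 gave -0.032 with no filter, -0.000103 with the block, -0.000616 with the crossed block and -0.090 to 0.080. For strain by platform, Ugt1a5 gave 0.10 with the block, 0.22 at low share and -0.65 to 0.82, Sult1e1 gave -0.22 at low share and -0.00101 to 0.22, Sult2a6 -1.12 to 0.20 and Mgst1 -0.76 to 0.40. With LEW TLH barcodes from 1500 UMIs, Ugt1a5 gave 0.030 for strain by platform and 0.025 for platform, and Gsta4 0.000292 in mesenchymal TLH cells. For platform, Ugt1a5 gave 0.83 at low share and -0.29 to 0.30, and Ugt2b -0.075 to 0.17. For zone in nuclei, Ugt2b gave -0.072 at low share. For zone by strain, low share gave 0.019 for Sult1e1, 0.26 for Sult2a6, -0.083 for Sult1a1 and 0.12 for Gsta4, and leaving out 1 library each gave -1.64 to 0.65 for Sult2a6 and -0.042 to 0.65 for Sult1a1. For endothelial nuclei Gsta4 ran from -0.26 to 0.21, and for mesenchymal nuclei Sult1e1 from -0.36 to 0.056, Mgst1 from -0.40 to 0.051 and Gsta4 from -0.044 to 0.50, with -0.62 for Gsta4 in cells of low marker share.

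With 2 libraries per strain, differences of the size seen between replicate nuclei libraries could not be resolved, and Gstp1 in hepatocyte nuclei rests on 7 to 29 UMIs per library.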
